A study of Glycine max with 6 samples.

Results

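KR3 and KNBS1 are soybean genes with the names of disease resistance proteins, 2 of the 6029 genes that have a probe set of their own on an Affymetrix soybean array. They were measured by 8 of its 37593 soybean probe sets, taken as every probe set that the platform's table pairs with one of these genes and no other. KR3 has 2 of them and KNBS1, which the gene table lists as LOC547562 with KNBS1 as its synonym, has 6. The RNA came from the first trifoliolate leaf of Glycine max, cultivar OAC Bayfield, harvested 48 h after that leaf was sprayed at the V1 stage. In the LCO group (3 arrays) the leaf received 2 mL of water with 1e-07 M lipo-chitooligosaccharide, the Nod factor NodBj-V of a Bradyrhizobium japonicum strain, and 0.02% Tween 20. In the water group (3 arrays) the spray was 2 mL of water and Tween 20 without LCO, so both groups were sprayed and both carried the detergent. Nothing in the labels says whether an array stands for 1 plant or a pool, so the spread between arrays may be technical. The genes were chosen by their difference between LCO and water in these same arrays, a probe set of each having passed the test. Their differences are therefore given as a description, with no test.

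Resistance proteins of the nucleotide-binding, leucine-rich-repeat class sit inside plant cells and detect pathogen molecules or the damage these do to host proteins. Those with a TIR domain at the front end signal through EDS1 and PAD4, many with a coiled coil instead rely on NDR1, and RAR1, SGT1 and HSP90 help to fold and stabilise the receptors. KR3 is known as a TIR-type resistance gene of soybean that has been studied in virus resistance. For KNBS1 the letters NBS are those of the nucleotide-binding site, and the tables used here give no description of it. Nod factors are lipid-bearing chitin oligomers by which rhizobia are recognised at the legume root, through receptors related to those that sense fungal chitin.

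The deposited values are log2 signals. Their medians over all probe sets of an array ran from 3.42 to 3.47. To be tested, a soybean probe set had to average more than 3.31 across the 6 arrays. That value is percentile 90 among the 23394 probe sets of other organisms on the array, and 29286 soybean probe sets passed it. Water 1 and water 2 lay closest together, where the SD of their difference was 0.198 across tested probe sets, while the other pairs ranged from 0.341 to 0.695. Markers mostly fitted leaf tissue. Of 20 photosynthesis probe sets 16 passed the filter, with means of up to 14.4, and 3 were under 3.31 in all 6 arrays. Of the nodulin probe sets 11 of 17 were under 3.31 in all 6 arrays, and of the seed storage or trypsin inhibitor probe sets 13 of 16. Among the nodulin genes with signal, the uricase gene UR2 had water means of 9.25 and 7.93 and LCO means of 9.05 and 7.74 in its probe sets. Of the 5 tested nodulin probe sets 4 had lower estimates with LCO and 1 a higher one, and none passed limma's adjusted p of 0.05, beside 3.55% of all tested. The higher one, of ENOD55-2, read 3.39, 3.15 and 3.26 in water 1, 2 and 3 and 3.60, 3.61 and 4.40 in LCO 1, 2 and 3, without overlap. Its water values lay near 3.31. The 3 seed probe sets with signal belong to the Kunitz trypsin inhibitor genes KTI-2 and KTI-3. The KTI-2 means were 8.87 in water and 7.71 with LCO, and those of KTI-3 were 8.33 against 6.95 and 8.43 against 7.14. In each the LCO arrays lay under the water arrays, as in 16.3% of all tested probe sets. None passed limma's adjusted p of 0.05, beside 3.55% of all tested, and all 3 had an unadjusted p under 0.05, beside 25.8% of all tested. The array means of the 11 sieve element probe sets, which mark phloem, ran from 3.87 to 4.01 in water and from 4.21 to 4.64 with LCO. Of the 7 tested among them none passed limma's test at an adjusted p of 0.05, beside 3.55% of all tested probe sets. An unadjusted p under 0.05 was found in 5, beside 25.8% of all tested probe sets, and 2 of the 11 were under 3.31 in all 6 arrays. RNA integrity can be read from the gap between 3′ and 5′ probe sets of a long transcript. For the P450 control this gap was 1.01, 0.97 and 0.95 in water 1, 2 and 3 and 2.13, 1.74 and 2.92 in LCO 1, 2 and 3. That of the GlutTrans control differed by 0.21 between the groups and that of an actin by -0.17. The part of phloem content, trypsin inhibitor levels and RNA integrity in the values below was not tested.

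KR3 was higher in every LCO array than in every water array by the brighter of its probe sets, which read 5.75, 5.39 and 5.26 in water 1, 2 and 3 and 7.58, 8.20 and 7.17 in LCO 1, 2 and 3 (log2). The lowest LCO array lay 1.42 above the highest water array. Group means were 5.47 ± 0.26 and 7.65 ± 0.52 (SD, n = 3), a log2 difference of 2.18 or 4.54-fold. In bulk leaf RNA, more cells that use a gene and more RNA per cell cannot be told apart.

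The dimmer KR3 probe set read 2.44, 2.58 and 2.51 in the water arrays and 4.39, 5.07 and 3.66 in LCO 1, 2 and 3. All water arrays were under 3.31 and all LCO arrays above it, so this probe set passed the filter only through the LCO group. Its LCO mean was 4.37 ± 0.71 (SD, n = 3). With the water group at background the signal was at least 2.09-fold higher with LCO. Its suffix s_at marks a probe set whose probes can match more than 1 transcript, so its signal need not be KR3 alone and it adds no separate support. Both probe sets placed the LCO arrays in the same order, with LCO 2 highest and LCO 3 lowest. LCO 3, the lowest LCO array for KR3, was the array with the largest gap between 3′ and 5′ probe sets of P450. LCO 2, the highest, had the smallest P450 gap of the LCO group. The GlutTrans gap was 0.30, 0.65 and 0.84 in LCO 1, 2 and 3, and the actin gap 1.36, 1.30 and 1.27. LCO 3 thus had the largest gap for GlutTrans but the smallest for actin, and LCO 2 lay between the other LCO arrays in both. The part of RNA integrity in the order of the arrays was not tested.

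**Figure D1:**
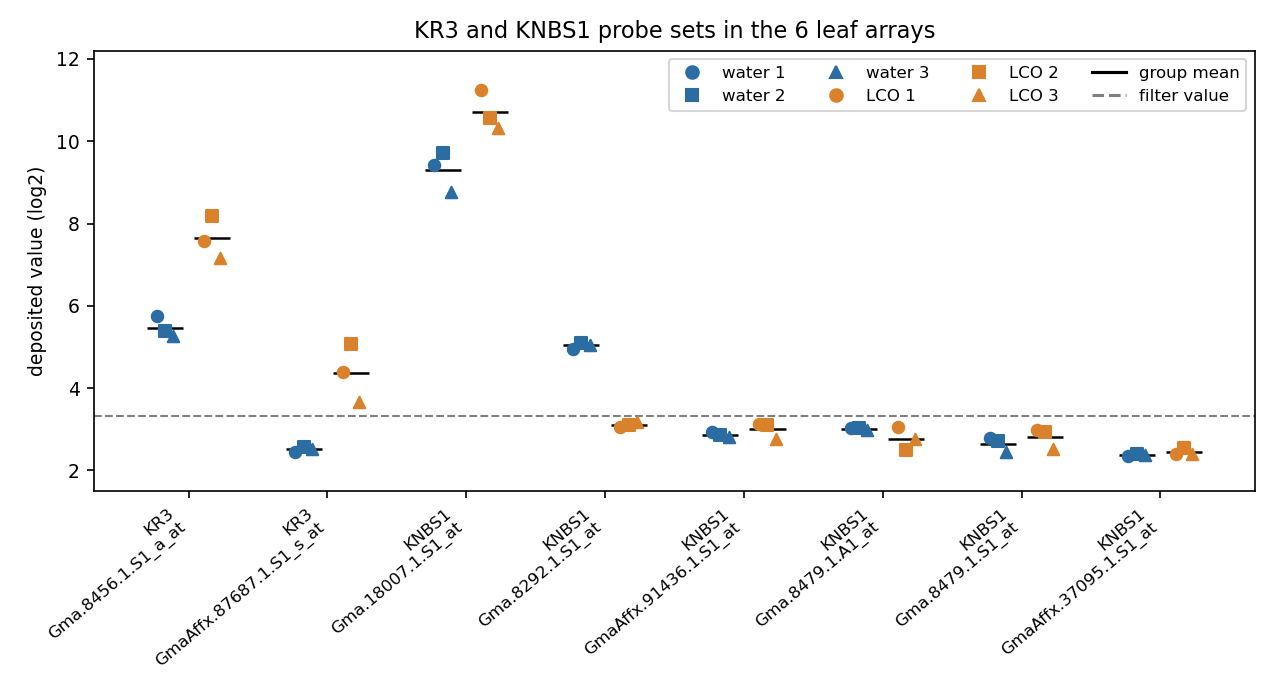
Deposited log2 values of the 8 probe sets of KR3 and KNBS1 in each array, with water in blue, LCO in orange, a symbol for each replicate number, black bars for group means and a dashed line at 3.31. The groups stand apart in 4 probe sets, in 3 of them with LCO higher and in the dimmer KNBS1 probe set above the line with LCO lower, and 4 KNBS1 probe sets lie under the line throughout.

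KNBS1 gave no single picture, since its probe sets went in opposite directions or showed no signal. The brightest read 9.41, 9.71 and 8.78 in water 1, 2 and 3 and 11.24, 10.56 and 10.32 in LCO 1, 2 and 3. Every LCO array was above every water array, with a gap of 0.61 between water 2 and LCO 3. The means were 9.30 ± 0.48 and 10.71 ± 0.48 (SD, n = 3), a log2 difference of 1.41 or 2.65-fold.

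A dimmer probe set, also mapped to KNBS1 alone, read 4.96, 5.11 and 5.06 in the water arrays and 3.06, 3.11 and 3.18 in the LCO arrays. All water arrays were above 3.31 and all LCO arrays under it, so this probe set passed the filter only through the water group. The spread within groups was small, with means of 5.04 ± 0.08 and 3.11 ± 0.06 (SD, n = 3), and the nearest arrays of the groups were 1.78 apart. With the LCO group at background the signal was at least 3.32-fold lower. Between the groups this is a reading above background against a reading at background, which 69 tested probe sets showed in this direction and 70 in the other, KR3's dimmer probe set among the latter.

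The remaining 4 KNBS1 probe sets gave 24 values from 2.36 to 3.13. All of these were under 3.31, the groups overlapped in each, and none entered the test. Among these 4 is the only KNBS1 probe set that the platform table ties to a direct sequence submission. It read 3.03, 3.03 and 2.98 in water 1, 2 and 3 and 3.06, 2.49 and 2.77 in LCO 1, 2 and 3. The probe sets with signal both come from expressed sequence tags, as do 4 of the 6. For KR3 it was the brighter probe set that comes from a direct submission. The name KNBS1 is also carried by another gene, LOC100795233, which lies 13 annotated genes away on the same chromosome and has no probe set of its own in the table. The table does not say whether any of these probes also match that gene.

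Of the 8 probe sets, 4 entered the test, 2 for each gene. A limma adjusted p under 0.05 was reached by 1.67% of the 29286 tested probe sets with LCO higher and by 1.88% with LCO lower, in all 3.55%. Groups did not overlap in 31.5% of tested probe sets, in 15.3% with LCO higher and in 16.3% with LCO lower. They did not overlap in any of the 4, with LCO higher in 3 and lower in 1, which follows in part from how the genes were chosen. The dimmer KR3 probe set also passed the filter only through the LCO group, and the dimmer KNBS1 probe set only through the water group. Neither therefore adds support.

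**Figure D2:**
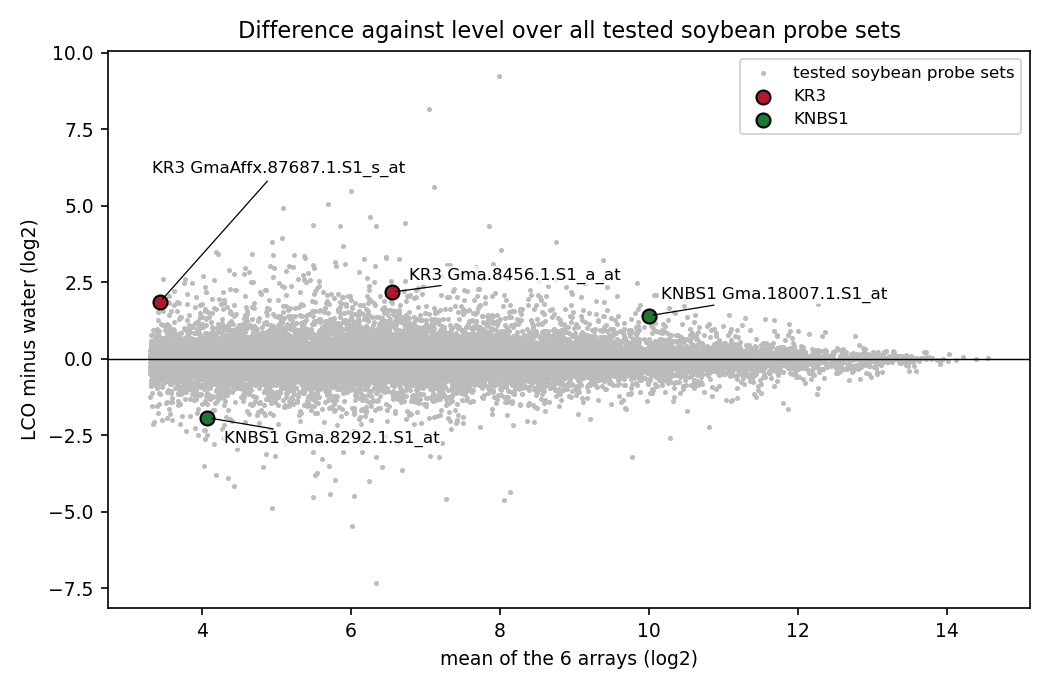
LCO minus water (log2, vertical) against the mean of the 6 arrays (log2, horizontal) for the 29286 tested soybean probe sets, in grey, with those of KR3 in red and of KNBS1 in green. The KNBS1 probe sets lie on opposite sides of 0 and both of KR3 lie above it; the lower KNBS1 point and the KR3 point at the left edge have a group at background, so their heights are not exact differences.

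Tested probe sets of the same gene gave differences of opposite sign, of any size, in 32.3% of the 1476 genes with at least 2 of them. KNBS1 was chosen by this same contrast, so the size of its disagreement is given as a description and lends no support. The KNBS1 differences lay 3.33 apart, not exactly since 1 has a group at background, beside a median of 0.22 over these genes. A spread at least as large was found in 3 genes, KNBS1 included. Differences at or beyond 1 log2 unit in both directions were found in 5, again with KNBS1. With 6 probe sets to its name KNBS1 is among 21 of 6029 genes with that many or more. Which of its probe sets reads the KNBS1 transcript cannot be settled from these values.

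The genes whose arrays followed each probe set most closely were sought among 346 named genes with a range of at least 1 log2 unit. All share the 6 arrays and the contrast that chose KR3 and KNBS1, so the correlations are a description. Each gene is given by its most alike probe set alone, and its other probe sets can differ. Those given for GSTU28, NAC19, CYP82A3, IFS1, BZIP94 and GST24 carry the suffix s_at, so their signals need not come from the named gene alone. For the brighter KR3 probe set the closest was the detoxification gene GSTU28, whose product belongs to the tau glutathione S-transferases (Pearson r = 0.984 over 6 arrays). GSTU28 differed by 2.88 and likewise had LCO 2 highest and LCO 3 lowest. NAC19 (r = 0.972) and LOC100170714, or NAC21 (r = 0.945), both transcription factor genes of the NAC family, followed, with differences of 1.02 and 1.22. The cytochrome P450 gene CYP82A3 (r = 0.936) and the isoflavone synthase gene IFS1 (r = 0.929) came next, at 2.24 and 2.09. The differences of the tested probe sets of CYP82A3 spanned 1.59 log2 units, and those of LOC100170714 spanned 0.97.

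For the dimmer KNBS1 probe set the likeness was tightest with BZIP94, a bZIP transcription factor gene (r = 1.000 when rounded, over 6 arrays). BZIP94 read 4.94, 5.02 and 4.98 in water 1, 2 and 3 and 2.54, 2.59 and 2.69 in LCO 1, 2 and 3, likewise above background in water and under it with LCO. The asparagine synthetase gene AS2 (r = 0.996), the zeta-class glutathione S-transferase gene GSTZ3 (r = 0.992), the isoflavone methyltransferase gene LOC100813225, or iomt2 (r = 0.990), and the chalcone synthase gene CHS1 (r = 0.987) followed. The differences of AS2 and GSTZ3 were -1.80 and -2.03 in these probe sets. Other tested probe sets of the same genes read otherwise. AS2 also had a difference of -4.61, and the 5 tested probe sets of CHS1 ran from -2.12 to 0.004. The differences spanned 2.02 log2 units in GSTZ3 and 1.48 in BZIP94. In iomt2 and CHS1, as in BZIP94, all LCO arrays were under 3.31, so only bounds hold, of at least 4.15-fold lower for iomt2, 1.99-fold for CHS1 and 3.17-fold for BZIP94. Values at background have no order, so nothing is read from the order of the LCO arrays here.

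The brighter KNBS1 probe set had other companions, namely 1-3-1A, or MYB69 (r = 0.991), and MYB60 (r = 0.976), both MYB transcription factor genes. They were followed by COR2 (r = 0.976), the glutathione S-transferase gene GST24 (r = 0.976) and ITPK1, an inositol phosphate kinase gene (r = 0.972), with differences from 0.61 to 0.96. In these LCO 1 was the highest array, as for this KNBS1 probe set. With 6 arrays in 2 groups a high r is common. Of the 5534 tested probe sets with a range of at least 1, 3.98% had an r above 0.9 with the brighter KR3 probe set. The share was 5.53% for the brighter KNBS1 probe set and 7.46% for the dimmer.

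**Figure D3:**
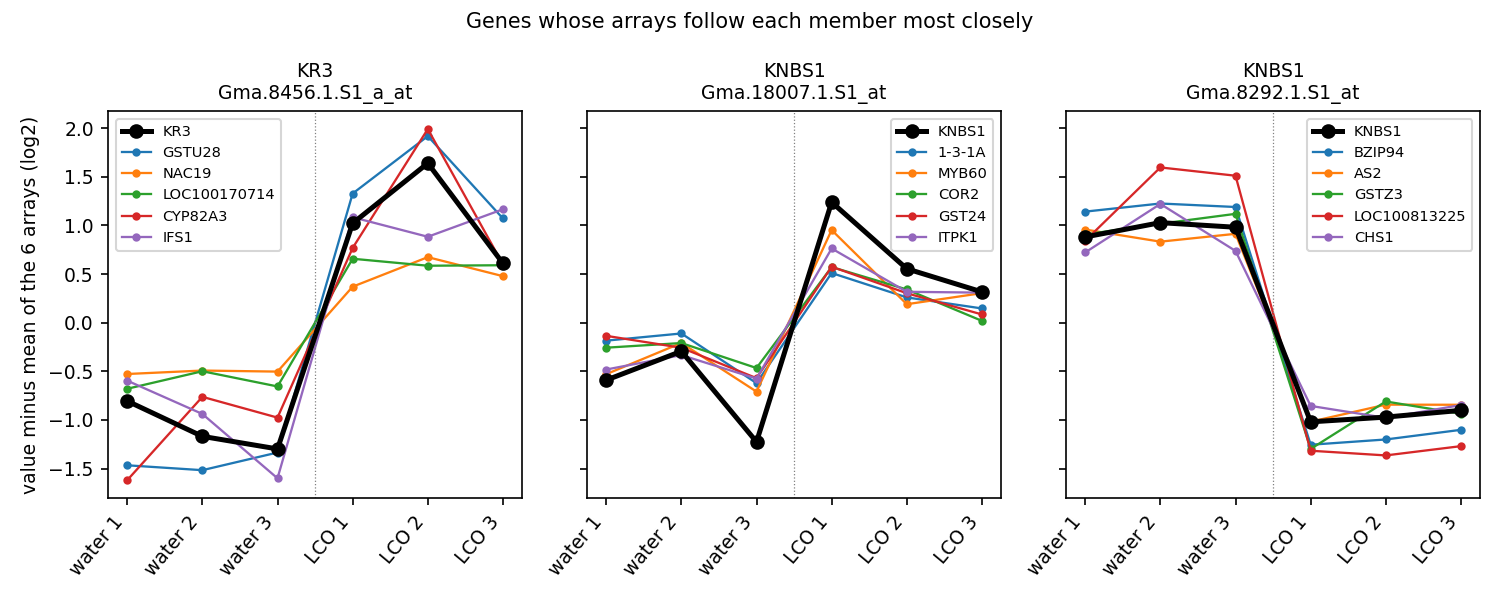
Value minus the mean of the 6 arrays (log2) for the brighter KR3 probe set and both tested KNBS1 probe sets, in black, each with its 5 most alike named genes in colour; lines only join the points of a gene, and replicates have no order. KR3 and GSTU28 are highest in LCO 2, and the brighter KNBS1 probe set in LCO 1. The dimmer KNBS1 probe set drops to background in all 3 LCO arrays, as the BZIP94 probe set shown does.

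Few genes beside KR3 and KNBS1 on their chromosomes could be read. Within 8 annotated genes on either side, 2 neighbours of KR3 and 1 of KNBS1 have a probe set of their own. LOC100788858, 4 genes from KR3, read 8.68 in water and 8.40 with LCO by its bright probe set, a difference of -0.29 (SE 0.10, limma adjusted p = 0.133). LOC100306379, 5 genes from KR3, was under 3.31 in all 6 arrays by both of its probe sets. LOC547561, 4 genes from KNBS1, was above 3.31 in only 2 arrays, water 3 at 3.54 and LCO 2 at 4.46, with a difference of 0.33 (SE 0.37, limma adjusted p = 0.615).

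Other soybean genes named for resistance showed no call. Of 8 probe sets for 7 such genes, 7 were tested and none passed limma's adjusted p of 0.05, against 3.55% of all tested; 1 had an unadjusted p under 0.05, against 25.8% of all. Their median difference was 0.16, beside -0.01 over all tested. KR1, a resistance gene named in series with KR3 and picked after its values were seen, read 6.92, 6.68 and 6.78 in water 1, 2 and 3 and 6.91, 6.81 and 6.89 in LCO 1, 2 and 3. The groups of KR1 overlapped, with a difference of 0.07 (SE 0.10, limma adjusted p = 0.672). SHMT, the serine hydroxymethyltransferase of the cyst nematode resistance locus Rhg4, read 9.93, 10.00 and 10.34 against 10.37, 10.81 and 10.96. Its difference was 0.62 (SE 0.19, limma adjusted p = 0.114), and its groups lay side by side without overlap. That held for 1 of the 7 tested, beside 31.5% of all tested probe sets. RHG4, a receptor kinase gene named for the same locus, differed by 0.41 (SE 0.23, limma adjusted p = 0.305) in the probe set with the smaller p.

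The signalling genes below resistance receptors were all detected, and none of their 19 probe sets for 8 genes passed (limma), while 4 had an unadjusted p under 0.05, 3 of them with LCO lower. Over all tested probe sets 3.55% passed and 25.8% had an unadjusted p under 0.05. The estimates were higher in 12 and lower in 7, with a median of 0.08. EDS1-2, the lipase-like partner through which TIR-type receptors signal, read 8.52, 8.73 and 8.48 in water 1, 2 and 3 and 7.50, 8.20 and 7.54 in LCO 1, 2 and 3. Every LCO array was below every water array, and the difference was -0.83 (SE 0.20, limma adjusted p = 0.0778). Groups did not overlap in 5 of the 19 probe sets, beside 31.5% of all tested. PAD4, which pairs with EDS1, read 6.21, 6.35 and 6.39 against 5.81, 6.03 and 5.47 in its brighter probe set. That is a difference of -0.54 (SE 0.16, limma adjusted p = 0.107), beside -0.61 (SE 0.19, limma adjusted p = 0.116) in the dimmer. NDR1A, used by coiled-coil receptors, had differences of 0.36 and 0.20 in its probe sets, and NDR1b of 0.18. The chaperone-linked RAR1-1 differed by 0.18 and 0.09, the guarded protein gene RIN4c by 0.04, and the 7 probe sets of the chaperone HSP90-1 by -0.19 to 0.19. These NDR1A, NDR1b, RAR1-1, RIN4c and HSP90-1 values were chosen after they had been seen. KR3 was higher with LCO while the EDS1-2 and PAD4 estimates, which did not pass, were below 0.

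Salicylate genes, which make and relay the hormone that follows resistance receptor activity, had none of 5 probe sets past the threshold (limma), beside 3.55% of all tested. An unadjusted p under 0.05 was found in 1, beside 25.8% of all tested. Their median was -0.38, beside -0.01 over all tested, with 2 estimates higher and 3 lower. LOC778136, a TGA-type bZIP factor gene with the synonym GmTGA24, differed by -0.46 (SE 0.18, limma adjusted p = 0.181). PAL2.1, phenylalanine ammonia-lyase, differed by -0.38 (SE 0.19, limma adjusted p = 0.263) in the probe set with the smallest p and by 0.12 in the brightest. For surface receptors of microbial patterns the list held SERK1 alone, a co-receptor kinase, with a difference of -0.09 (SE 0.11, limma adjusted p = 0.618).

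Pathogenesis-related proteins, the secreted and cytosolic products of the defence response, had 16 probe sets for 8 genes, of which 6 were tested. All 6 estimates were lower with LCO, while 49.0% of all tested probe sets were higher. None passed (limma), beside 3.55% of all tested, and 2 had an unadjusted p under 0.05, beside 25.8% of all tested. The median was -0.86, beside -0.01 over all tested. PR10, a member of the ribonuclease-like class, read 6.47, 7.00 and 7.10 in water 1, 2 and 3 and 4.52, 5.38 and 3.34 in LCO 1, 2 and 3, a difference of -2.44 (SE 0.49, limma adjusted p = 0.0538). PR1-7, of the class whose transcripts serve as salicylate markers, read 6.70, 5.56 and 5.99 against 4.08, 4.41 and 2.69, a difference of -2.36 (SE 0.50, limma adjusted p = 0.0584). In both every LCO array lay under every water array. Groups did not overlap in these 2 of the 6 tested, beside 31.5% of all tested probe sets, or 16.3% with LCO lower. LCO 3 was the lowest array in both, and for PR1-7 it was under 3.31, so that difference is not exact. LCO 3 is also the array with the largest P450 and GlutTrans gaps between 3′ and 5′ probe sets and the smallest actin gap. The part of RNA integrity in these values was not tested.

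**Figure D4:**
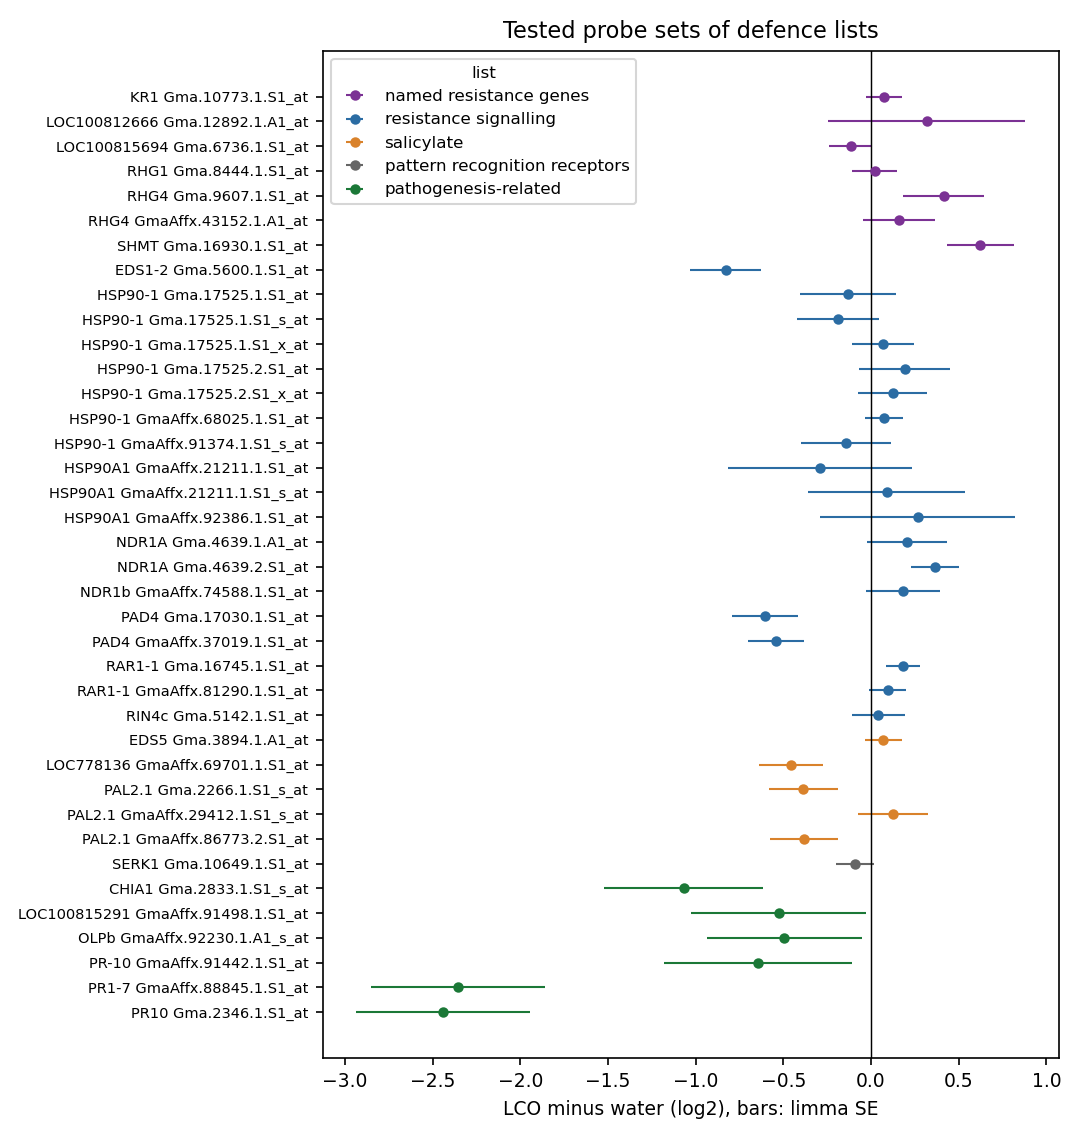
LCO minus water (log2) with limma SE for the 38 tested probe sets of the 5 defence lists, coloured by list. EDS1-2, PAD4, PR10 and PR1-7 lie to the left of 0, KR1 and the HSP90-1 probe sets lie near 0, and none passed an adjusted p of 0.05.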

How the data were processed

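Leaf RNA was labelled as biotin cRNA and hybridised to 6 one-colour Affymetrix soybean arrays, 3 per group by their titles. The authors deposited log2 values from RMA, which brings arrays to 1 distribution and summarises probes, per the submitters' processing notes. The software used was not given in the sources used here. The log2 scale was inferred from values between 1.45 and 14.6, not centred by probe set.

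Probe sets were paired with genes by the platform table, and symbols updated by Entrez identifier to RefSeq Glycine_max_v4.0 (8652 of 8677 probe sets with 1 gene matched). Of the rest 370 have several genes and 28546 none listed, so most soybean probe sets are unnamed here. The array's build is not stated, so no coordinates are given. Protein and promoter sequences were not used here, and 2 lists that needed proteins (genes with a nucleotide-binding motif, and the closest relatives) were not analysed.

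Groups were compared with limma 3.58.1 in R 4.3.3 (lmFit, eBayes, group only), with Benjamini-Hochberg over all 29286 tested probe sets and a threshold of 0.05. The code was run on simulated data with independent arrays and, per probe set, the same spread in every array. That checks the code and not the calls in these arrays. Where all arrays of a group lay under 3.31, the fold against that value is a bound. Precision is limited by how few arrays there are. Members, lists and tests were chosen with earlier results of these data known. Lists were matched by symbol or synonym; ribosomal RPS6 and RPS13, chalcone isomerases, basic 7S globulins and BGL matched by letters alone and were left out. Named were all KR3 and KNBS1 probe sets, the 5 most alike genes for each of 3 of them, and per list up to 4 changed probe sets or, with none, the 2 with the smallest p. Alternatives covered filter, normalization, prior, array weights, replicate block, averaging water 1 and 2, and leaving out each array. Figures used matplotlib 3.10.9 in Python 3.11.15.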

Additional observations from a re-analysis of the deposited data

How the results depend on the processing

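The differences of the 4 tested KR3 and KNBS1 probe sets kept their sign under every alternative run and moved by less than 1 SD between replicates. Leaving out each array in turn gave 1.91 to 2.42 for the brighter KR3 probe set, 1.51 to 2.22 for the dimmer, 1.14 to 1.61 for the brighter KNBS1 probe set and -1.97 to -1.90 for the dimmer, where both dimmer sets have a group at background and no exact difference. The count of changed soybean probe sets, the background for these genes, was far less settled. It was 1040 in all, 9544 with array weights, 3010 with a replicate block and 203 with water 1 and 2 averaged. It ran from 193 to 2207 with an array left out, at 570, 416 and 291 when LCO 1, 2 or 3 was dropped and at 199, 193 and 2207 when the dropped array was water 1, 2 or 3. The cause was not tested. Same-numbered arrays did not all deviate together (r = 0.452, -0.036 and 0.527 for replicates 1, 2 and 3 over the tested probe sets). Different-numbered arrays gave r from -0.54 to 0.45. These values do not settle whether same-numbered arrays share an effect, and the main fit did not take the numbers as pairs.

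The lists, with no call, gained some under 3 alternatives. With array weights 1 of 7 tested named resistance probe sets passed, as did 2 of 19 for signalling. So did 3 of 5 for salicylate and 3 of 6 for pathogenesis-related genes, beside 9544 of all 29286 tested. With the replicate block these counts were 1, 1, 1 and 3, beside 3010 of 29286. Without LCO 2, 1 passed in signalling (EDS1-2, -1.06, limma adjusted p = 0.0322) and 1 among pathogenesis-related genes (PR10, -2.92, limma adjusted p = 0.0410), beside 416 of all 29286 tested. With an array left out both counts thus ran from 0 to 1, and the other list counts stayed at 0. EDS1-2 also passed with array weights and with the block (limma adjusted p = 0.0404 and 0.0307). Adding RPS6 and RPS13, chosen after seeing the data, left the resistance list at 0. The 2 lists that needed proteins gave no values, so their alternatives were not run. With 3 arrays a group and no probe-level data, signals near 3.31 give only bounds.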
